A study of Bos taurus with 6 samples.

Results

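CFLAR, BIRC3 and MCL1 encode proteins that hold back apoptosis, and they were followed here in white blood cells of heifers after and before severe cold. Every probe set whose platform annotation gave one of these symbols and no other was taken, which gave 6 of the 12763 probe sets on the array: 3 for CFLAR, 2 for BIRC3 and 1 for MCL1. The animals were female Sanhe cattle, a dual-purpose breed, kept in a shared cowshed on a total mixed ration. The 3 arrays after cold, labelled 1, 2 and 3, came from animals that had stood outdoors at -32 °C for 3 hours and then in a cowshed at 5 °C for 15 hours, and the labels do not say when in that sequence blood was taken. The 3 arrays before cold, labelled 4, 5 and 6, came from the same 3 animals of a herd of 30, and the labels do not say which samples share an animal. The p-values below therefore treat 6 arrays as separate samples although they come from 3 animals.

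Apoptosis can be started from outside the cell, when death receptors of the tumour necrosis factor (TNF) family gather FADD and caspase-8, or from inside it, when BAX and BAK1 open the outer mitochondrial membrane. CFLAR, also called FLIP, resembles caspase-8 and takes its place beside FADD, so that caspase-8 is held in check. BIRC3, also called cIAP2, is an inhibitor of apoptosis protein with ubiquitin ligase activity that acts in TNF receptor complexes, and its gene is a target of NF-kappaB. MCL1 is a short-lived BCL2 relative that binds BAK1 and BH3-only proteins, and in mice neutrophils depend on it for survival.

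Neither CFLAR nor BIRC3 nor MCL1 passed the test for a change with cold in any probe set. All 6 had a lower mean after cold, by 0.05 to 0.78 on the log2 scale, and the adjusted p was 1.00 for each with limma over all probe sets (two-sided, Benjamini-Hochberg). The share of all probe sets past that threshold, an adjusted p of 0.05, was 0%. At an unadjusted p under 0.05 there were 0 of the 6, against 63 of 12763 probe sets (0.494%). A lower mean after cold was found in 6076 of all probe sets (47.6%). A mean lower by at least 1.5-fold was found in 3 of the 6, both CFLAR probe sets of one database sequence and one of BIRC3, and in 869 of all probe sets (6.81%). The 6 are no 6 separate observations, since they were read on the same arrays and several belong to the same gene.

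The count at an unadjusted p under 0.05 depended on how the arrays were handled, while the adjusted p missed the threshold in each case. The labels do not give the matching of samples to animals, so each of the 6 possible matchings was fitted as a block. In the matching of after 1 with before 4, after 2 with before 6 and after 3 with before 5, the brightest and second CFLAR probe sets had unadjusted limma p-values of 0.0156 and 0.0215, and 1168 of all probe sets were under 0.05 (9.15%). The brightest CFLAR probe set was lower after cold in all 3 of these pairs, by log2 differences of -0.92, -0.10 and -1.33. In the matching of after 1 with before 5, after 2 with before 6 and after 3 with before 4, these p-values were 0.0374 and 0.0363, with 656 of all probe sets under 0.05 (5.14%). The other 4 matchings gave 0 of the 6 member probe sets under 0.05. In them the brightest CFLAR probe set was higher on after 2 (8.74) than on its partner, before 4 (8.68) or before 5 (8.35). Array weights ran from 0.0019 for after 1 to 30.7 for before 4, which left after 1 almost no part in that fit. With these weights the limma p-values of the same pair of CFLAR probe sets were 0.0467 and 0.0213, with 662 of all probe sets (5.19%). Without after 2 they were 0.0038 and 0.0078, and the second BIRC3 probe set was at 0.0128, with 1787 of all probe sets (14%). Without after 2 and before 6 the same 3 probe sets were under 0.05, with 1234 of all probe sets (9.67%).

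By their brightest probe sets, CFLAR had the largest difference of the 3 genes. The third CFLAR probe set differed by less (-0.43) than the second of BIRC3 (-0.59). The brightest CFLAR probe set was at log2 intensities of 7.76, 8.74 and 7.03 on the after 1, 2 and 3 arrays, against 8.68, 8.35 and 8.84 on the before 4, 5 and 6 arrays. After 1 and after 3 lay below every array before cold, while after 2 lay among them, so the groups overlapped. The means were 7.84 ± 0.86 after cold and 8.62 ± 0.25 before cold (SD, n = 3 each), a log2 change of -0.78 ± 0.43 (SE) with a 95% interval from -1.76 to 0.20. On the linear scale the brightest CFLAR probe set stood at 130 on after 3 and 427 on after 2, and between 327 and 459 before cold. An exact permutation test of this single value, two-sided, gave p = 0.3, where 3 arrays against 3 cannot go below 0.1.

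The second CFLAR probe set was designed from the same database sequence, so it is not an independent reading. It was at 7.63, 8.18 and 6.79 after cold, against 8.32, 8.21 and 8.30 before cold. Here all 3 arrays after cold lay below all 3 before it, by a gap of 0.03 between after 2 and before 5. Groups that did not overlap were seen in 1 of the 6 probe sets and in 559 of all 12763 (4.38%), of which 295 were lower after cold (2.31%). The change was -0.75 ± 0.37 (SE), with an unadjusted limma p of 0.0738 and an exact permutation p = 0.1, the smallest the design allows. The arrays before cold spanned 0.11 log2 units for this probe set and those after cold 1.39.

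The third CFLAR probe set comes from another database sequence of the gene and was dimmer. It was at 7.08, 7.82 and 6.17 after cold, against 7.70, 6.80 and 7.86 before cold. After 3 was again the lowest array, but before 5 was the next lowest, and the groups overlapped widely. Its change was -0.43 ± 0.47 (SE), with an interval from -1.50 to 0.64.

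The size of the CFLAR difference rested on single arrays. Without after 3, the log2 changes of the 3 probe sets were -0.37, -0.38 and -0.0040, and without after 2 they were -1.23, -1.07 and -0.83, in the order given above. The adjusted p stayed at or above 0.270 (limma) in these and the other alternatives run for CFLAR.

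BIRC3 was among the brighter probe sets of the array, with mean intensities above those of 94.4% and 88.8% of all probe sets for its pair. The first was at 10.29, 10.72 and 10.12 after cold, against 10.52, 10.82 and 10.83 before cold. After 1 and after 3 were below all arrays before cold and after 2 was above before 4. The means were 10.38 ± 0.31 after cold and 10.72 ± 0.18 before cold (SD, n = 3 each), and the change was -0.34 ± 0.27 (SE), with an interval from -0.97 to 0.28 and an exact permutation p = 0.2.

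The second BIRC3 probe set spread more widely, at 9.35, 10.28 and 8.66 after cold and 9.64, 10.15 and 10.28 before cold. After 2 was level with before 6 here, and after 3 and after 1 were below every array before cold. The change was -0.59 ± 0.42 (SE) with an interval from -1.56 to 0.37. It became -1.02 without after 2 and -0.21 without after 3, and both limma adjusted p-values missed the threshold (0.278 and 1.00). RefSeq's table for the assembly ARS-UCD2.0 lists BIRC2 as an older name of BIRC3 besides holding a separate BIRC2 gene next to it. No probe set carried BIRC2 as its single symbol, so that close relative is not analysed here, and cross-hybridisation between the pair was not tested.

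MCL1 had the smallest difference. Its probe set was at 9.99, 10.93 and 9.53 after cold, against 10.08, 9.75 and 10.78 before cold. Each group held one high array, after 2 and before 6, and otherwise values within 9.53 and 10.08. The means were 10.15 ± 0.71 after cold and 10.20 ± 0.53 before cold (SD, n = 3 each), a change of -0.05 ± 0.42 (SE). The interval ran from -1.03 to 0.92, so these arrays leave room for a change of MCL1 of the size seen for CFLAR in either direction. The sign turned without after 3, to 0.26, and without before 6, to 0.24, while without after 2 the change was -0.44.

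**Figure D1:**
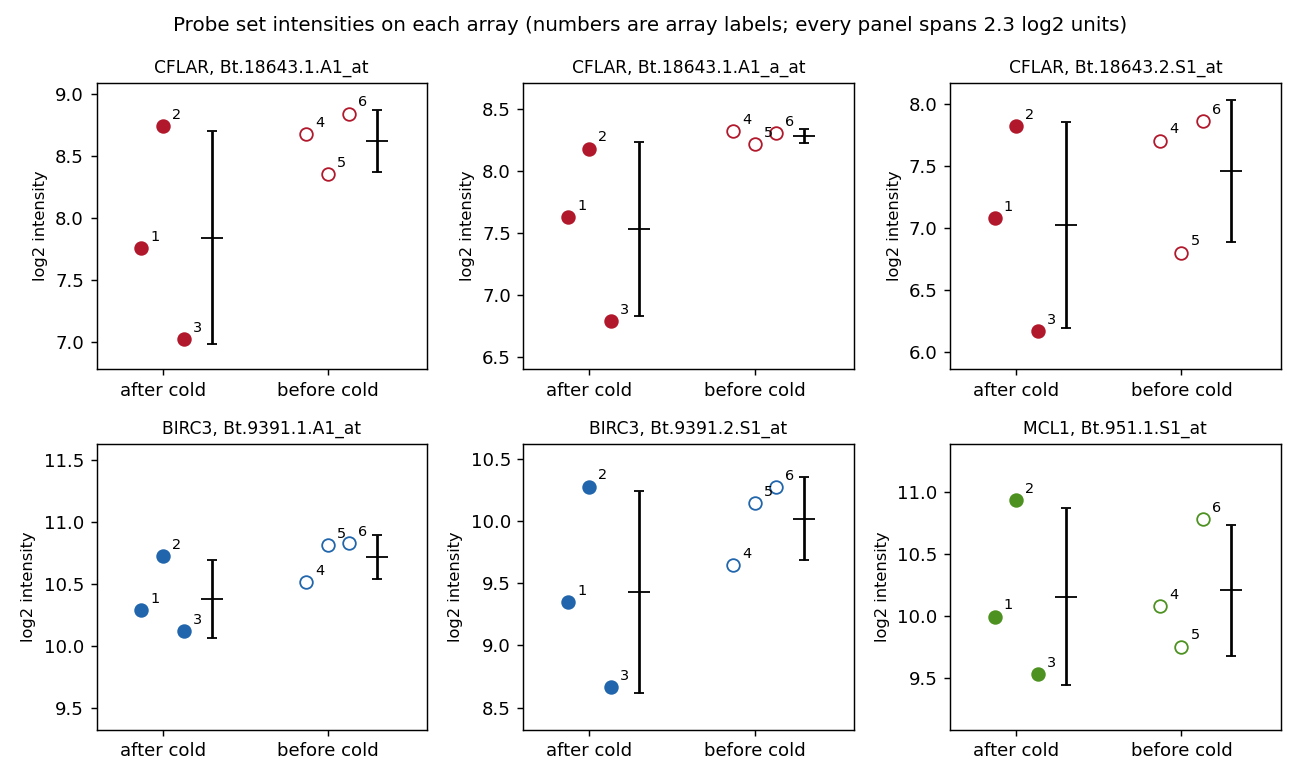
Log2 intensity (vertical axis) of each CFLAR, BIRC3 and MCL1 probe set on the 3 arrays after cold (filled points) and the 3 before cold (open points), with array labels beside the points and the mean ± SD of each group as a bar; the upper row holds the CFLAR probe sets in the order of the text, the lower row those of BIRC3 and that of MCL1. After 3 is the lowest array in every panel, and the groups separate only for the second CFLAR probe set.

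**Figure D2:**
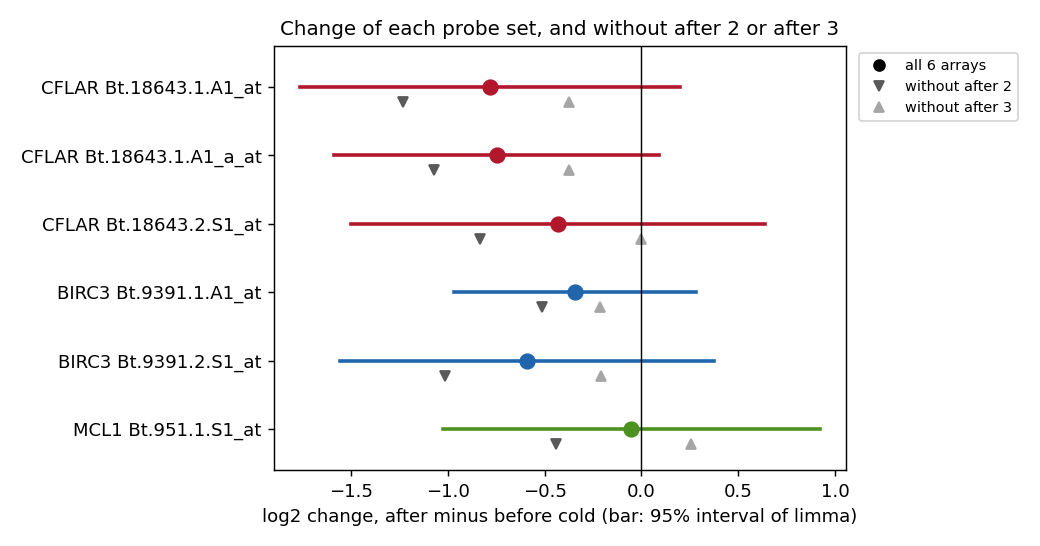
Log2 change, after minus before cold (horizontal axis), of each probe set, in the order of the text from the top, with limma's 95% interval as a bar, and the value without the after 2 or the after 3 array as triangles. Every interval includes 0, and each change is more negative without after 2 and less negative, or above 0 for MCL1, without after 3.

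Probe sets of a gene were correlated, but did not always rank the arrays alike. Over the 6 arrays, which share animals, the pair of CFLAR probe sets from one database sequence had a Pearson correlation of 0.97, and the BIRC3 pair also had 0.97. The third CFLAR probe set correlated with the brightest at 0.91 and with the second at 0.83. Spearman's rho was 0.71 for the CFLAR pair from one sequence, 0.94 for the brightest with the third, 0.60 for the second with the third and 0.83 for the BIRC3 pair. Over all 2404 pairs of probe sets that share a gene the median correlation was 0.85. These correlations are a description, since 6 arrays from 3 animals are too few for more.

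The distance between probe sets also varied over arrays. On before 5 the third CFLAR probe set lay 1.55 below the brightest one, while on the other 5 arrays that distance was 0.68 to 0.98. Between BIRC3 probe sets the distance was 1.46 on after 3 and 0.44 to 0.94 on the other arrays. Changes of the pair of CFLAR probe sets from one sequence differed by -0.03 (exact permutation p = 0.9). Those of the brightest and the third differed by -0.35 (exact permutation p = 0.1, the smallest possible), and those of the second and the third by -0.32 (exact permutation p = 0.5). For the BIRC3 pair the changes differed by 0.25 (exact permutation p = 0.6). These p-values are not adjusted for the number of pairs. The median absolute difference of changes over all pairs of probe sets for a gene was 0.13, and 18.8% of them reached 0.3. Which part of each transcript a probe set reads was not used here, so differences between probe sets and differences between transcript forms cannot be told apart.

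The 6 probe sets shared their lowest array. After 3 was the lowest array for all 6, as it was for 4561 of all 12763 probe sets (35.7%). After 3 also had the lowest median log2 intensity over all probe sets (7.25), and after 2 and before 6 had the highest (7.49 and 7.44). Before 6 or after 2 was the highest array for 5 of the 6, the exception being the second CFLAR probe set with before 4. After 2 and before 6 differed by at most 0.15 in any of the 6 probe sets. The spread was larger after cold than before for all 6 (9613 of all probe sets, 75.3%).

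The first principal component of all probe sets ordered the arrays in a like manner. The sign of such a component is arbitrary and was set to be positive on after 2. Scores on the first principal component, which took up 68.4% of all variance, were -23.3, 52.1 and -63.2 on after 1, 2 and 3, against -1.31, -16.3 and 52.0 on before 4, 5 and 6. Over the 6 arrays its correlation was 0.89, 0.78 and 0.92 for the CFLAR probe sets, 0.79 and 0.87 for BIRC3 and 0.97 for MCL1. The median of this correlation over all probe sets was 0.83 with the sign left out, as probe sets can run either way. BAX, for example, was highest on after 3 and lowest on before 6. Over all probe sets the correlation of after 2 with before 6 was 0.995, with 4 probe sets more than 2-fold apart, against 0.874 and 4867 for after 2 and after 3. Without after 2 and before 6 together, the changes were -1.12 for the brightest CFLAR probe set, -0.46 for the brightest of BIRC3 and -0.15 for MCL1, with limma adjusted p-values of 0.492, 0.635 and 0.841. The part of this component in the members' values was not tested.

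**Figure D3:**
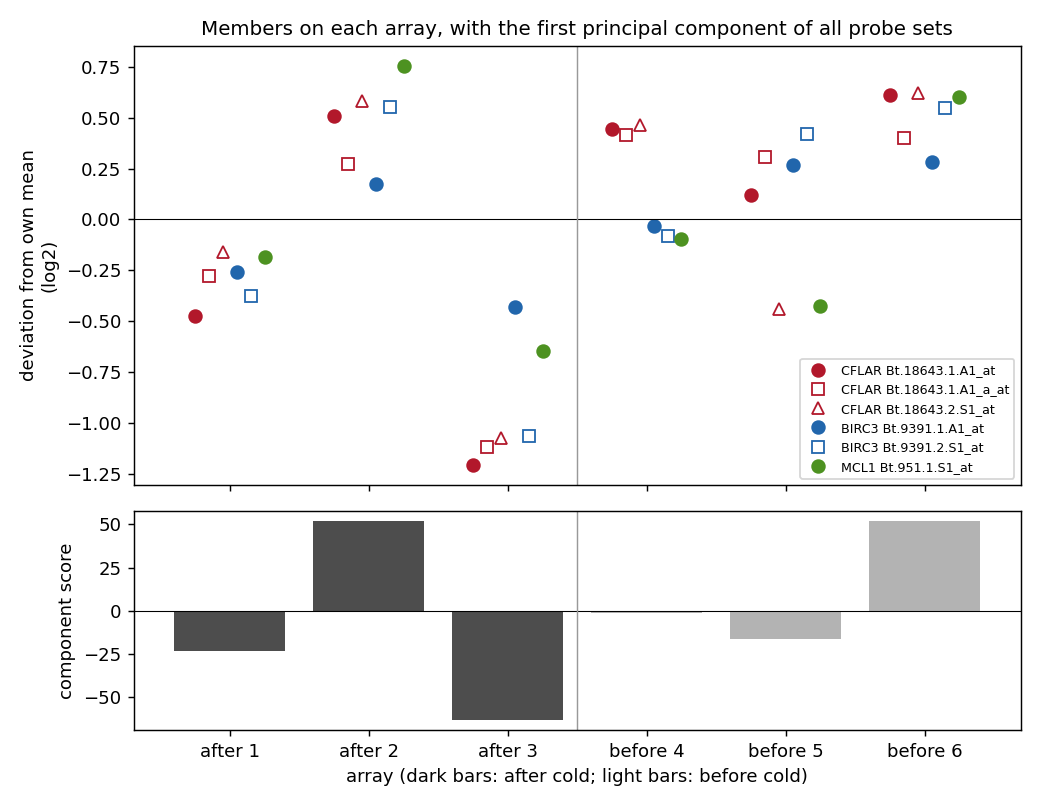
Upper panel: deviation of each probe set from its own mean (log2, vertical axis) on each of the 6 arrays, with arrays after cold on the left and the legend in the order of the text. Lower panel: score of each array on the first principal component of all probe sets, from -63.2 on after 3 to 52.1 on after 2. All 6 probe sets are lowest on after 3, and on before 5 the third CFLAR probe set and MCL1 sit below their means while the others sit above.

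Within an array, CFLAR was set against the other genes through the difference of log2 intensities, which is not affected by a shift common to all probe sets of an array. The level of such a difference depends on the probes and carries no meaning, so only its shift between groups is read. CFLAR minus MCL1, with the brightest CFLAR probe set, was -2.23, -2.19 and -2.50 after cold, against -1.41, -1.40 and -1.94 before cold. All 3 arrays after cold were below all 3 before it, with means of -2.31 ± 0.17 after and -1.58 ± 0.31 before cold (SD, n = 3 each). The shift was -0.73, with an exact permutation p = 0.1, the smallest possible, and 0.3 after Benjamini-Hochberg adjustment over the 3 pairs of genes compared. The separation held for the brightest CFLAR probe set only. With the second in its place, after 1 lay above before 6, and with the third, after 1 lay above before 5, so those groups overlapped.

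When MCL1 was subtracted in the same way from each of 6334 other genes, the groups were separate for 291 (4.59%), of which 282 were lower after cold (4.45%). On leaving out each array in turn the shift of CFLAR minus MCL1, with the brightest CFLAR probe set, ran from -0.91 to -0.63. CFLAR minus BIRC3, with the brightest probe set of each, was -2.53, -1.98 and -3.09 after cold, against -1.84, -2.46 and -1.99 before cold. Those groups overlapped, with a shift of -0.44 (exact permutation p = 0.3, adjusted 0.45), or -0.16 without after 3 and -0.72 without after 2. BIRC3 minus MCL1 was 0.30, -0.21 and 0.59 after cold, against 0.44, 1.06 and 0.05 before cold, a shift of -0.29 (exact permutation p = 0.5, adjusted 0.5). That shift was -0.07 without after 2 and -0.02 without before 5. It was -0.47 without after 3 and -0.52 without before 6.

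**Figure D4:**
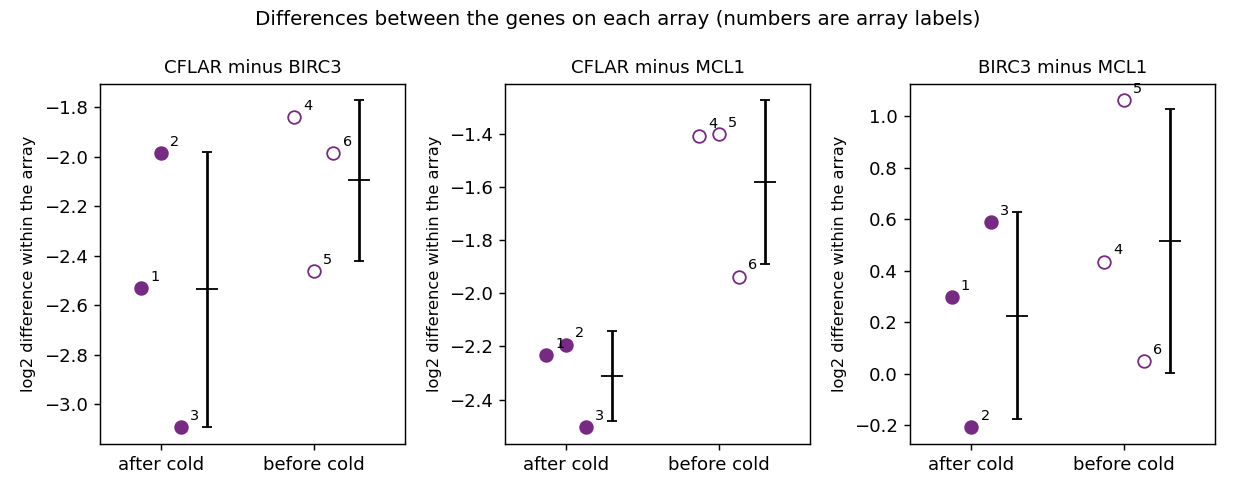
Difference of log2 intensities between each pair of the 3 genes within an array (vertical axis; each panel has its own range), after cold (filled) and before cold (open), with array labels and the mean ± SD as a bar. Each gene is shown by its brightest probe set. The groups are separate for CFLAR minus MCL1, from -2.50 to -2.19 after cold and from -1.94 to -1.40 before, and overlap for the other pairs. With either of the other CFLAR probe sets, not shown, the groups of CFLAR minus MCL1 overlap.

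The wider cell death machinery was followed through 9 gene lists with 81 genes beside the members, of which 46 were measured. None of the 46 passed the threshold in either direction (limma), and 0 had an unadjusted p under 0.05. A higher mean after cold was found in 35 and a lower mean in 11, where 47.6% of all probe sets had a lower mean. The median change was 0.16, against 0.02 over all probe sets. These sets are unlike, since each of the 46 genes is represented by its brightest probe set, while all probe sets include several per gene and some without a symbol. Without after 3 the 35 became 23. Changes ran from -0.64 to 0.49. With all 6 arrays, 0 of the 46 thus had a change as low as that of the brightest CFLAR probe set. FAS, BNIP3L, ITCH and CHUK were lower than the third CFLAR probe set (-0.43). Over all probe sets, 254 (1.99%) had a lower change than the brightest CFLAR probe set and 1721 (13.5%) than the third. FAS was lower than the brightest CFLAR probe set without after 3 (-0.40 against -0.37) and without before 4 (-0.86 against -0.76). HTRA2 was the single gene with groups that did not overlap (2.17% of the 46, below the 4.38% of all probe sets).

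Of the relatives of MCL1, which bind pro-apoptotic proteins, 3 were measured and each had a higher mean after cold (median change 0.20). BCL2A1 differed by 0.20 ± 0.32 (SE) and BCL2L1, which encodes BCL-xL, by 0.37 ± 0.49. BCL2A1 was at 10.97, 10.12 and 10.38 after cold, against 10.25, 10.63 and 9.98 before cold, which overlap. Both pore-forming effectors had a higher mean, BAX by 0.49 ± 0.33 and BAK1 by 0.16 ± 0.47. BAX was at 7.66, 7.22 and 8.37 after cold, against 7.29, 7.38 and 7.10 before cold, and its highest array was after 3, where CFLAR was lowest. Among BH3-only and related genes, 2 of 3 were higher. BNIP3L, a mitophagy receptor, differed by -0.63 ± 0.36 and its paralog BNIP3 by 0.23 ± 0.26.

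Of inhibitor of apoptosis proteins and their antagonists, 5 were measured beside BIRC3. The relatives BIRC5 and BIRC6 and the antagonists DIABLO and XAF1 had a lower mean after cold, and the antagonist HTRA2 a higher one (median change -0.11). HTRA2, a mitochondrial protease that binds inhibitor of apoptosis proteins, was at 9.58, 9.31 and 9.27 after cold, against 9.19, 8.97 and 9.04 before cold. Its arrays after cold all lay above those before, with a change of 0.32 ± 0.24 (SE) and an unadjusted limma p of 0.225. XAF1, an antagonist of XIAP, differed by -0.32 ± 0.29.

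Around CFLAR, in the receptor complexes, 7 of 8 adaptors and kinases had a higher mean after cold (median change 0.26). FADD, the adaptor to which CFLAR binds, was at 7.48, 6.56 and 7.70 after cold, against 7.15, 7.41 and 6.40 before cold, a change of 0.26 ± 0.40 (SE). TRADD, the adaptor of TNF receptors, differed by 0.32 ± 0.34. CYLD, a deubiquitinase of these complexes, was the remaining gene and had a lower mean (-0.42 ± 0.40). CASP8 and TRAF2 had no probe set of their symbol alone and are not analysed here. Of death receptors and ligands, 7 of 8 were higher (median change 0.15). TNF differed by 0.35 ± 0.33 and the receptor FAS by -0.64 ± 0.49, with FAS at 5.85, 7.68 and 6.05 after cold, against 6.72, 7.28 and 7.48 before cold. FAS thus had its low values on after 1 and after 3, as CFLAR did.

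Of NF-kappaB subunits, inhibitors and kinases, 9 of 10 had a higher mean after cold (median change 0.20). NFKBIA, the inhibitor gene that NF-kappaB itself switches on, was at 9.91, 9.54 and 10.03 after cold, against 9.86, 10.09 and 9.31 before cold. Its change was 0.07 ± 0.30 (SE), and its sign turned without after 3 (-0.03). The inhibitor gene NFKBIE differed by 0.34 ± 0.37 and CHUK, a kinase that acts on such inhibitors, by -0.54 ± 0.41. Of the downstream caspase pathway, 3 of 4 were higher (median change 0.10), with the nuclease DFFB at 0.22 ± 0.38 and its inhibitor DFFA at 0.14 ± 0.27. Of the ubiquitin ligases, ITCH, which acts on CFLAR, differed by -0.57 ± 0.34 and FBXW7, which acts on MCL1, by -0.42 ± 0.57. In that list 1 of 3 was higher.

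**Figure D5:**
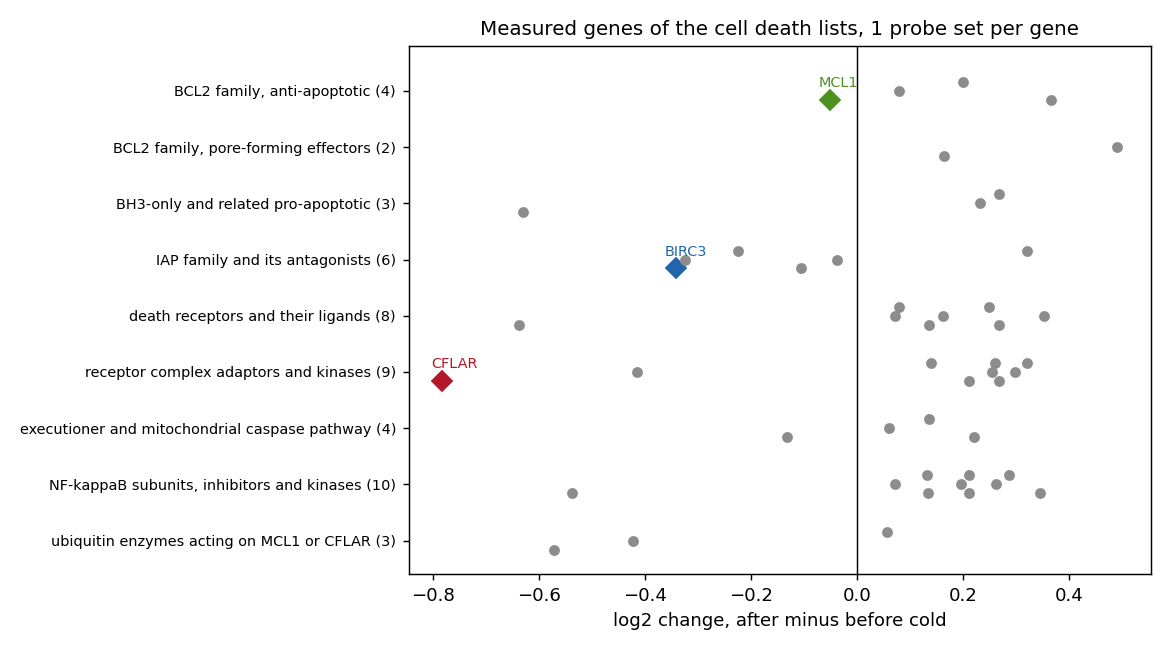
Log2 change, after minus before cold (horizontal axis), of each measured gene in the 9 lists (rows, with the number of measured genes), CFLAR, BIRC3 and MCL1 as diamonds and other genes as grey points. The 46 other genes lie between -0.64 and 0.49, and CFLAR, at -0.78, lies to their left with all 6 arrays in.

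The genes whose level followed CFLAR most closely over the 6 arrays were GPN3, NAP1L5, POLD3, CHEK1 and C15H11orf58, with Pearson correlations of 0.997 to 0.999 with its brightest probe set. For BIRC3 they were OPA1, CYRIB, TUT7, ZNF330 and CYB5R4 (0.993 to 0.995), and for MCL1 they were CRY1, TFB1M, USP28, KIF3B and FAM98A (0.996 to 0.999). Such likeness was common. A correlation of at least 0.9 was found for 618 of 6334 genes with CFLAR (9.76%), 457 with BIRC3 (7.21%) and 667 with MCL1 (10.5%). These counts were 431, 207 and 498 with each array centred on its median, so that of BIRC3 was the most affected. With that centring, 4 of the 5 names for CFLAR, 1 of the 5 for BIRC3 and 5 of the 5 for MCL1 were again among the closest 5. The 3 genes correlated among themselves at 0.88 for CFLAR and BIRC3, 0.76 for CFLAR and MCL1 and 0.62 for BIRC3 and MCL1.

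The labelled tissue was checked through marker lists, and in bulk RNA fewer cells of a type and less RNA per cell cannot be told apart. Leukocyte markers differed widely in log2 intensity. S100A8 of neutrophils was at 12.8 to 13.6 and the T cell receptor chain gene CD3D at 11.4 to 12.2 over the 6 arrays, while the T cell co-receptor gene CD4 was at 5.28 to 6.10 and NCR1 of natural killer cells at 5.05 to 6.54. Of the 39 markers measured, 5 lay on every array below the lowest array median. RNA of platelets and red cells was also present, with PF4 at 12.4 to 12.8 and the globin gene HBB at 11.7 to 12.2. Beside the low CFLAR value on after 3, the 4 neutrophil markers measured summed to intensities of 19914, 18989 and 24969 after cold, against 16173, 24614 and 17429 before cold. The 11 T cell markers summed to 18011, 15394 and 14522 after cold, against 19741, 12653 and 16304 before cold. The 2 eosinophil markers summed to 694, 537 and 470 after cold, against 1006, 685 and 694 before cold, with ALOX15 at a change of -0.82 and CCR3 at -0.29. The sums of the other lists ran from 1175 to 1945 after cold and 1114 to 1982 before cold for 5 monocyte markers, from 5097 to 6712 after cold and 5187 to 6165 before cold for 5 B cell markers, and from 2270 to 5032 after cold and 2225 to 4185 before cold for 7 of natural killer and cytotoxic cells. They ran from 7583 to 7855 after cold and 7722 to 10324 before cold for 2 platelet markers, and from 5089 to 5924 after cold and 4466 to 6059 before cold for 3 of red cells. The sums overlapped between groups for all 8 lists.

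Single markers did separate the groups. Of the 39, 4 had groups that did not overlap (10.3%, against 4.38% of all probe sets), and they are named here because of their values. MSR1 of monocytes (-0.66) and GZMB of cytotoxic cells (-0.59) were lower after cold on all arrays, and POU2AF1 (0.46) and CXCR5 (0.41) of B cells were higher. Other markers of their lists went the other way. A higher mean after cold was found in 2 of 5 monocyte markers and 6 of 7 of natural killer and cytotoxic cells, and a lower mean in 2 of 5 B cell markers. MSR1 was dim, at 4.04 to 5.21 in log2 intensity, below the lowest array median (7.25). It was the 1 marker with an unadjusted limma p under 0.05 (0.0465), and 0 of the 39 passed the threshold. Their part in the members' values was not tested.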

How the data were processed

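An Affymetrix bovine array was read in a single colour, and the deposited table holds linear intensities per probe set and array. The submitters' processing notes name GCOS and RMA (background correction, alignment of arrays and summary of probes) with no version. The genome build is not given in the sources used here, so no coordinates are reported, and no detection calls were used. Over 12763 probe sets the intensities ran from 3.91 to 18225, with array medians of 7.25 to 7.49 on the log2 scale. The number of arrays limits the precision. A single symbol belonged to 8125 probe sets, several to 56 and none to 4582, and 8109 of the 8125 matched the gene table of ARS-UCD2.0. A gene outside the members was represented by its brightest probe set.

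The log2 of the deposited intensities, with no further normalization, pseudocount or filter, was tested with limma 3.58.1 in R 4.3.3, without a block, over all probe sets, with an adjusted p of 0.05 as threshold. Single values also had exact permutation tests. The scripts were tested on simulated data. The members, the 9 pathway and 8 marker lists and the naming rule were chosen with earlier results of these data known. The rule names 2 genes per pathway list with the smallest unadjusted p, a set of direct partners whatever their values, and the 5 genes with the highest correlation with each member. Replicates are samples of separate labels, and only 3 animals stand behind them. Alternatives were filters on dim probe sets, variance trend, robust moderation, array weights, other normalizations, the mean of a gene's probe sets, leaving out arrays, and each of 6 matchings of samples as a block.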

Additional observations from a re-analysis of the deposited data

How the results depend on the processing

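In each alternative run, limma called 0 probe sets at an adjusted p of 0.05, so no call of a CFLAR, BIRC3 or MCL1 probe set changed. The change of CFLAR kept its sign throughout, from -1.23 (without after 2) to -0.37 (without after 3) on leaving out each array. That of BIRC3 ran from -0.51 to -0.21 and that of MCL1 from -0.44 to 0.26. Leaving out arrays of 6 lowers their number, and other causes of these shifts were not tested. Array weights gave -0.96 for CFLAR, with weights from 0.0019 (after 1) to 30.7 (before 4). A replicate block cannot change these values but changes their p. Over the 6 matchings the smallest adjusted p was 0.492 for CFLAR, 0.493 for BIRC3 and 0.877 for MCL1. All probe sets at an unadjusted p under 0.05, 63 in number, became 27 without the dimmest 50%, 662 with array weights, 100 to 109 with other normalizations, 5 to 1787 on leaving out each array, 1234 without after 2 and before 6, and 24 to 1168 with a block. The 559 with groups that did not overlap became 268 without the dimmest 50%, where fewer were tested, 793 to 5096 on leaving out each array and 5768 without after 2 and before 6. Groups of fewer arrays separate more easily, so the counts with arrays left out cannot be set against the 559.

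Among named pathway genes, leaving out each array gave changes of -0.23 to 0.56 for BAK1, -0.043 to 0.39 for BCL2A1, -0.021 to 0.82 for BCL2L1, -0.0028 to 0.33 for DFFA, -0.068 to 0.53 for DFFB, -0.032 to 0.60 for FADD, -1.07 to 0.066 for FBXW7, -0.15 to 0.24 for NFKBIA and -0.00042 to 0.56 for NFKBIE. Those that kept their sign ran from 0.18 to 0.75 for BAX, -1.21 to -0.30 for FAS, -0.90 to -0.14 for CHUK, -0.82 to -0.064 for CYLD, 0.11 to 0.61 for TRADD, -0.97 to -0.30 for BNIP3L, 0.13 to 0.36 for BNIP3, -0.86 to -0.29 for ITCH, -0.51 to -0.16 for XAF1, 0.19 to 0.62 for TNF and 0.22 to 0.38 for HTRA2. NFKBIA was at -0.011 with array weights and -0.0032 without after 2 and before 6, and TNF was at -0.17 with array weights. The comparisons between the 3 genes with arrays left out, and the count of pathway genes under alternatives, were chosen after seeing the data. Signal over background could not be weighed, since no detection calls were used.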
